A study of Homo sapiens with 8 samples.

Results

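Hyaluronan is built, bound and degraded by the products of a small set of genes, and their messenger RNA was followed here in LX-2 cells after inhibition of O-GlcNAc transferase. The set comprised 9 genes chosen by name for their role, with earlier results of these data known. They were the synthases HAS1, HAS2 and HAS3, the precursor enzyme UGDH, the receptors CD44 and HMMR, and the hyaluronidases HYAL1, HYAL2 and HYAL3. Rows with these symbols were found for 8 of the 9 among the 16796 genes listed, and HAS1 was not analysed here. All 8 passed the requirement of at least 10 counts over the 8 libraries, as did 14895 genes in all.

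LX-2 is an immortalised line of human hepatic stellate cells, the cells that become the matrix-producing myofibroblasts of the injured liver. The 4 control libraries came from cells without OSMI-1, and the 4 OGTi libraries from cells exposed to 50 µM OSMI-1, a small-molecule inhibitor of O-GlcNAc transferase (OGT), in each case over 24 h in serum-containing medium. Libraries of polyadenylated RNA carried the same numbers (replicates 1 to 4) in both groups, and each held between 24166756 and 28201215 counts. A single line represents stellate cells here, and OSMI-1 is the only means of inhibition among these libraries.

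Hyaluronan is a long unsulfated sugar chain of alternating glucuronic acid and N-acetylglucosamine. The synthases sit in the plasma membrane, polymerise the chain from UDP-glucuronic acid and UDP-N-acetylglucosamine and push it out of the cell, where it swells the matrix, binds receptors such as CD44 and is cut and taken up for degradation in lysosomes. UDP-N-acetylglucosamine is also the donor that OGT uses, and activated stellate cells are a known source of the hyaluronan that accumulates in liver fibrosis.

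Of the 8 genes measured, 3 were lower in OGTi cells (HAS2, HMMR and HYAL1), 1 was higher (HYAL2) and 4 did not pass the test (HAS3, UGDH, CD44 and HYAL3). Called here means a Benjamini-Hochberg q of 0.05 or lower in the DESeq2 Wald test. Among all 14028 genes given a q, 46.6% were called, 22.7% higher and 24.0% lower, and among the better expressed ones (at least 100 normalized counts on average) 53.1% were, so 4 called of 8 is close to the background. The fold change of HAS2 stood apart from that of the other 7. It ranked 12th from the largest fall among those 10994 better expressed genes, and only 4.48% of genes were called lower by 2-fold or more. The other called changes were no larger than the 1.304-fold fall of HMMR. The median log2 fold change of the 8 genes was -0.27, beside 0.00 over all genes tested. It lies between the values of HYAL3 and HAS3, neither of them called. The median absolute log2 fold change of genes given a q was 0.31.

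**Figure D1:**
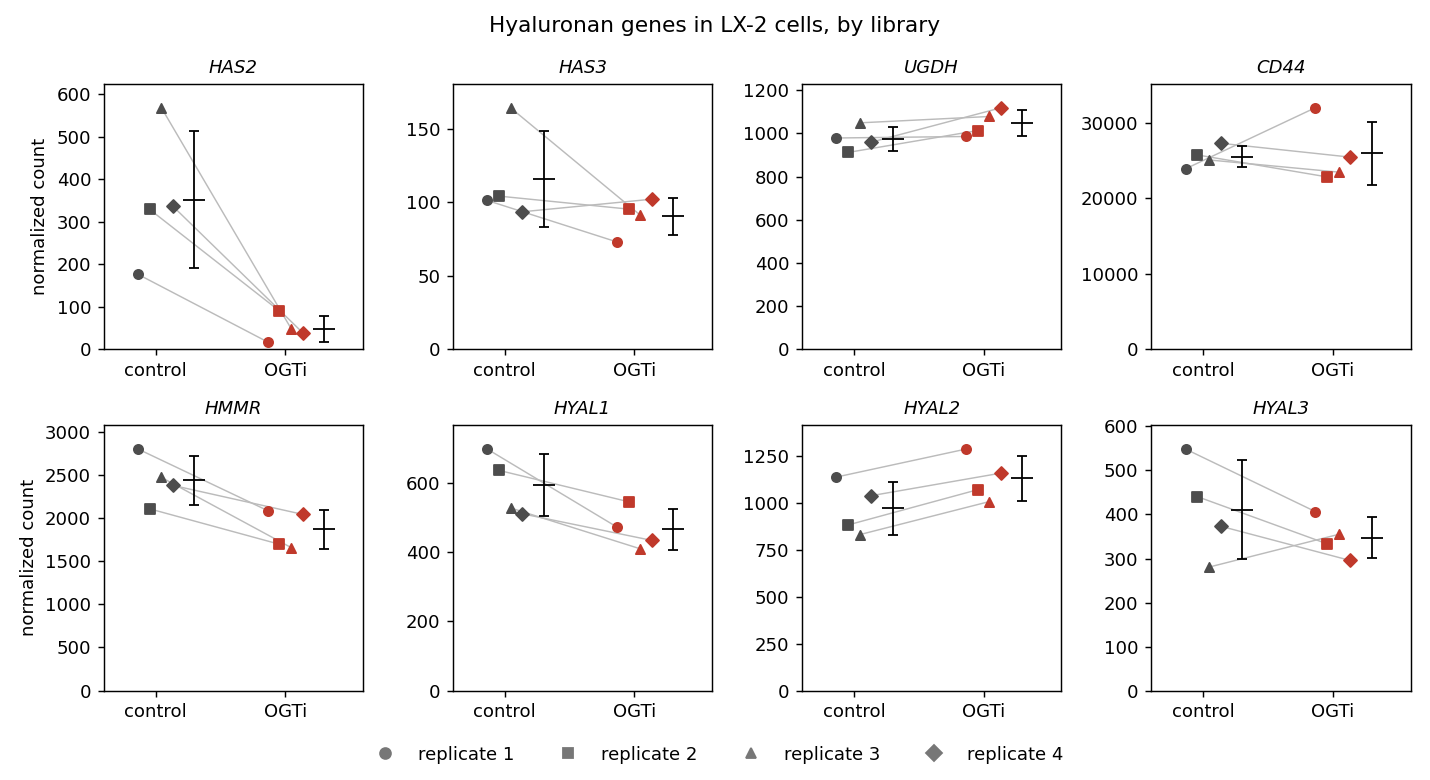
Normalized counts (counts divided by the size factor of the library, linear axes from 0) of the 8 hyaluronan genes in the 4 control and 4 OGTi libraries, with a panel for each gene. Points are libraries, lines join libraries with the same replicate number, and bars are the mean ± SD of a group. The HAS2 points of OGTi cells, from 17.4 to 90.4, lie below every control point, and those of HAS3, UGDH, CD44 and HYAL3 overlap between the groups.

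HAS2 encodes the synthase that makes long hyaluronan chains and is the principal synthase of many mesenchymal cells. In control replicates 1 to 4 it had 176, 329, 568 and 336 normalized counts, and in OGTi replicates 1 to 4 it had 17.4, 90.4, 49.0 and 39.1. The highest OGTi library was below the lowest control library, and HAS2 was lower in OGTi cells in 4 of 4 pairs. The log2 fold change was -2.93 ± 0.25 (SE, n = 4 libraries per group), a 7.60-fold fall (DESeq2, q = 2.06e-29). Without the replicate block HAS2 was still called, with a larger q of 2.07e-06 by DESeq2 and 6.33e-05 by edgeR. The size of the fall varied among pairs, with control-to-OGTi ratios of 10.2, 3.64, 11.6 and 8.60 for replicates 1 to 4. OGTi replicate 1 held 19 reads of HAS2 by expected count, with a 95% Poisson interval of 11.4 to 29.7 that covers counting error only, whereas control replicate 3 held 494 (interval 451 to 540). The spread among control libraries (352 ± 161, SD) was wider than counting error alone. Without replicate 2, the pair with the smallest fall, the log2 fold change was -3.33, and without replicate 3 it was -2.71. In these bulk libraries fewer cells expressing a gene and less of its RNA per cell cannot be told apart.

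HAS3, which makes shorter chains, was the least expressed of the 8 genes per length in control cells. It had 101, 104, 164 and 93.6 normalized counts in control replicates 1 to 4 and 73.1, 95.4, 91.3 and 102 in OGTi replicates 1 to 4. The groups overlapped, and control replicate 3 stood above the other control libraries. The log2 fold change of -0.33 ± 0.25 did not pass the test (DESeq2, q = 0.275), and its 95% interval of -0.81 to 0.15 holds both a fall to 0.57 of the control level and a slight rise. Exons of HAS3 share 365 bases, 7.02% of its exonic length, with CHTF8 on the opposite strand, and the libraries were counted by strand. CHTF8, a subunit of a sliding-clamp loader, went from 4003 ± 341 to 3447 ± 119 normalized counts (SD, n = 4), a log2 fold change of -0.21 ± 0.07 (DESeq2, q = 0.0102) that was not called without replicate 2 (q = 0.123) or replicate 4 (q = 0.0894).

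Levels of different genes were compared after division by exonic length, scaled to the same total in every library as TPM is ( from merged exons of GENCODE release 44). On this scale the HAS2 level was 14.7 ± 6.83 in controls and 2.08 ± 1.25 under OGTi, and the HAS3 level 3.95 ± 1.14 and 3.16 ± 0.458 (SD over 4 libraries). Every control library held more HAS2 than HAS3. In OGTi cells HAS2 was below HAS3 in replicates 1, 3 and 4 and slightly above it in replicate 2 (3.75 against 3.22). HAS2 made up 68.1%, 79.5%, 80.9% and 81.5% of the HAS2 and HAS3 transcript level in control replicates 1 to 4, and 22.6%, 53.7%, 39.7% and 31.9% in OGTi replicates 1 to 4. With the longest transcript in place of merged exons the group means were 73.7% and 32.5%, beside 77.5% and 37.0%.

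**Figure D2:**
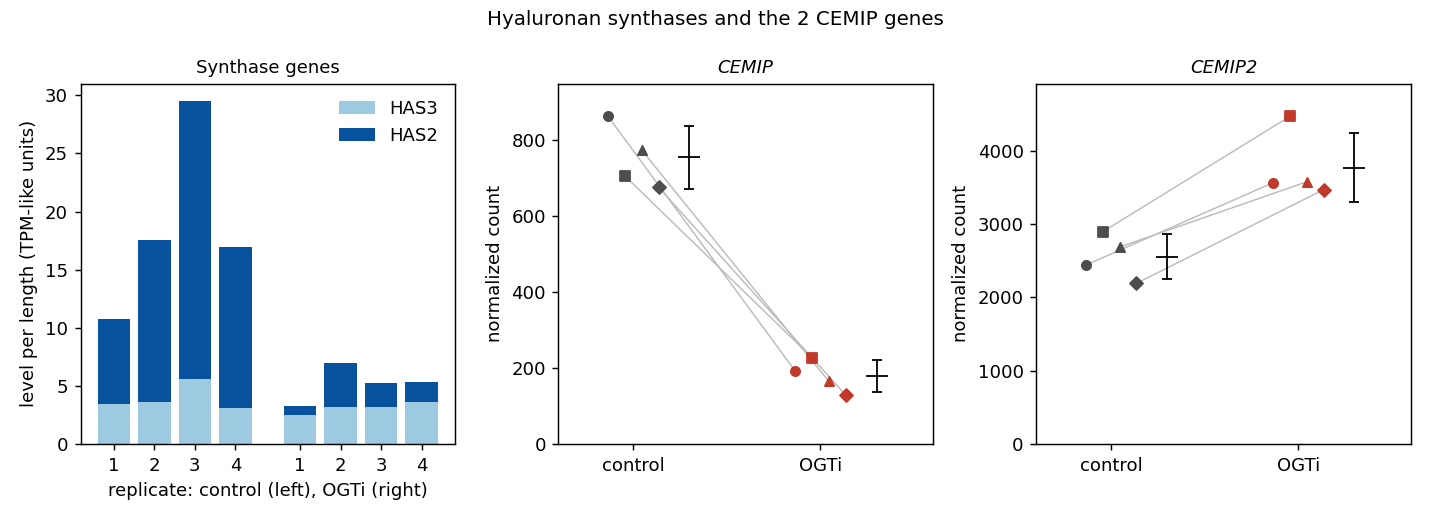
Left, transcript level per exonic length (scaled as TPM, linear axis from 0) in each library, as bars that stack HAS2 (dark) on HAS3 (light). Middle and right, normalized counts of CEMIP and CEMIP2, where points are libraries, lines join equal replicate numbers and bars are the mean ± SD of 4. The HAS2 part exceeds the HAS3 part in all 4 control libraries and, in OGTi cells, in replicate 2 only, while CEMIP falls and CEMIP2 rises with no overlap between groups.

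UGDH makes UDP-glucuronic acid, the sugar donor particular to glycosaminoglycans and glucuronides, by oxidising UDP-glucose. It had 979, 912, 1049 and 960 normalized counts in control replicates 1 to 4 and 986, 1014, 1079 and 1119 in OGTi replicates 1 to 4. OGTi exceeded control in 4 of 4 pairs, but the groups overlapped and the log2 fold change of 0.11 ± 0.09 did not pass the test (DESeq2, q = 0.374). The 95% interval, -0.08 to 0.29, leaves room for a rise of at most 1.22-fold.

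Around UGDH, a list held 12 enzymes that supply hyaluronan's UDP-sugars from glucose or consume UDP-glucuronic acid. Of these, 5 were called higher, 2 lower and 5 not called, with a median log2 fold change of 0.19. Among all genes averaging at least 100 normalized counts 53.1% were called, so 7 of 12 is close to the background. GFPT2, an isoform of the entry enzyme of the hexosamine pathway, changed most, from 714 ± 57.1 to 1489 ± 347 normalized counts (log2 fold change 1.04 ± 0.12, DESeq2 q = 1.19e-15). Its isoform GFPT1 had 1153 ± 77.6 and 1145 ± 50.4 and was not called. PGM3, further along the hexosamine pathway, rose slightly (0.24 ± 0.09, q = 0.0179), as did the glycolytic enzymes HK2 (0.35 ± 0.11, q = 0.00368) and GPI (0.26 ± 0.06, q = 0.000277). UXS1, which turns UDP-glucuronic acid into UDP-xylose, rose by 0.41 ± 0.09 (q = 9.12e-06). PGM1, which makes glucose 1-phosphate for UDP-glucose, had a log2 fold change of -0.32 ± 0.09 (q = 0.00116), and HK1 had -0.19 ± 0.07 (q = 0.0124). UGP2, GNPNAT1, UAP1 and UAP1L1 were not called. Without replicate 2 the list's 7 calls became 4, with HK1, HK2 and PGM3 lost. Each of these 3 was also lost without at least 1 other replicate, and PGM3 without the replicate block (DESeq2 q = 0.0701).

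OGT itself was lower in OGTi cells, by a log2 fold change of -0.45 ± 0.09 (DESeq2, q = 1.48e-06). OGA, which removes O-GlcNAc, went from 3159 ± 423 to 904 ± 85.3 normalized counts (-1.80 ± 0.09, q = 1.69e-92). OSMI-1 acts on the OGT protein, so its transcript does not check the labels.

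CD44, the main cell-surface receptor for hyaluronan, had the highest level of the 8 genes. It had 23910, 25750, 25088 and 27294 normalized counts in control replicates 1 to 4 and 31989, 22843, 23474 and 25457 in OGTi replicates 1 to 4. OGTi replicate 1 was the highest of all 8 libraries, and OGTi was lower than control in the other 3 pairs. The log2 fold change was 0.01 ± 0.09 (DESeq2, q = 0.930), with a 95% interval of -0.16 to 0.19, that is, 0.892 to 1.14 times the control level. Without replicate 1 it was -0.12 (q = 0.134), not called either. Per length, CD44 stood at 452 ± 23.3 in control and 471 ± 79.6 in OGTi cells. These are sums over all CD44 transcripts, and the standard and variant splice forms were not distinguished.

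A list of 14 genes whose products anchor, cut, bind or splice CD44 had 13 in the files. Of these, 3 were called higher, 5 lower and 5 not called (median log2 fold change -0.25). Over all genes given a q, 22.7% were called higher and 24.0% lower. The linkers between CD44 and actin were all lower, with log2 fold changes of -0.43 ± 0.08 for RDX (q = 9.40e-07), -0.35 ± 0.09 for MSN (q = 0.000394) and -0.25 ± 0.07 for EZR (q = 0.000498). Merlin, the related growth suppressor encoded by NF2, went from 4129 ± 287 to 2587 ± 63.3 normalized counts (-0.67 ± 0.07, q = 4.69e-19). MSN is less even than the others, as its groups overlapped, it was lower in 3 of 4 pairs, and its call was lost without the replicate block (DESeq2 q = 0.0674). The sheddases moved apart, with ADAM17 at 0.44 ± 0.10 (q = 0.000106) and ADAM10 at -0.28 ± 0.08 (q = 0.00227, or 0.0619 without replicate 3), whereas MMP14 had -0.02 ± 0.09 and was not called. SPP1, which encodes the CD44 ligand osteopontin, was also called higher and is named after its values were seen. It was scarce, at 26.3 ± 10.1 and 94.8 ± 55.0 normalized counts (1.79 ± 0.32, q = 1.23e-07).

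HMMR (also called RHAMM) was named for binding hyaluronan but acts mainly inside the cell, where it holds spindle proteins at microtubules during mitosis. It had 2798, 2105, 2470 and 2377 normalized counts in control replicates 1 to 4 and 2085, 1696, 1657 and 2041 in OGTi replicates 1 to 4. All 4 OGTi libraries were below all 4 control libraries, the highest by a small margin. The log2 fold change was -0.38 ± 0.08, a fall to 0.767 of the control level (DESeq2, q = 3.11e-05). With HAS2 it made 2 of 8 genes whose OGTi libraries all lay below the control libraries, beside 19.2% of the 14895 genes tested.

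In a list of 10 partners of HMMR in spindle assembly and mitosis, 9 were called lower and 1 higher, with a median log2 fold change of -0.63, and 8 of the 10, BRCA1 among them, did not overlap between groups. Over all genes 46.6% were called, 24.0% lower, and 19.2% lay lower and 18.8% higher without overlap. Of the 9 called lower, all except NUMA1 and DYNLL1, both at -0.19, had a larger change than HMMR on the log2 scale. These 2 lost their calls without the replicate block (DESeq2 q = 0.121 and 0.0909) and when some replicates were left out. The kinase AURKA went from 8920 ± 545 to 3521 ± 402 normalized counts (-1.35 ± 0.08, q = 3.29e-69), and TPX2, which activates it on the spindle and depends on HMMR for its place there, had -0.74 ± 0.07 (q = 3.97e-22). PLK1 had -1.24 ± 0.08, CCNB1 -1.0 ± 0.09, KIF11, the motor that separates spindle poles, -0.69 ± 0.08, and FAM83D, which HMMR brings to the spindle, -0.57 ± 0.07. BARD1, a subunit of the ubiquitin ligase that targets HMMR, had -0.46 ± 0.12 (q = 0.000282). Its partner BRCA1 moved the other way, from 1954 ± 187 to 2544 ± 159 (0.38 ± 0.08, q = 7.82e-06).

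As a description, the promoter of HMMR is shown beside those of 3 of these spindle partners. The RefSeq promoter table (GRCh38.p14, from 250 bases before to 50 bases after the gene start) was searched on both strands for TTTGAA, the usual core of the cell cycle genes homology region (CHR) of G2/M genes, and for CCAAT, the NF-Y box that often lies upstream of it. Both were chosen after values and sequences had been seen. The HMMR window (chr5:163460382-163460681, plus strand) holds TTTGAA at 28 and at 22 bases before the start, side by side, and CCAAT at 177, 144, 95, 69 and 66 bases before it, of which the last 2 overlap as a palindrome. The windows of PLK1 (chr16:23678799-23678888), KIF11 (chr10:92593040-92593129) and CCNB1 (chr5:69167060-69167149) are the 90 bases just before each start on the plus strand. Capitals mark both motifs, on either strand. On the opposite strand the CCAAT box reads ATTGG, while the CHR core there reads TTCAAA.
HMMR: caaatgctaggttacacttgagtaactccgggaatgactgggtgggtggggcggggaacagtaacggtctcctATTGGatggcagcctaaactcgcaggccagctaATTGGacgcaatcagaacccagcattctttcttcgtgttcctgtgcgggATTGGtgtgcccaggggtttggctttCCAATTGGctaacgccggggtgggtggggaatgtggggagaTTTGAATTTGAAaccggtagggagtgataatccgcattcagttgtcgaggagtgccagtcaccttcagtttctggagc
PLK1: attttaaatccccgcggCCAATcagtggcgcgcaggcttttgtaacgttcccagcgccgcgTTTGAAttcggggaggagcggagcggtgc
KIF11: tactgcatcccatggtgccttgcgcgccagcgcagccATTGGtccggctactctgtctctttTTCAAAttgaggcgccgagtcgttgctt
CCNB1: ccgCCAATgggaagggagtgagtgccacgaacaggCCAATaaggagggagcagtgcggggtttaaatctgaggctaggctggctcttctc
TTTGAA begins 29 bases before the start of PLK1 and 28 before that of KIF11, close to its place in HMMR, and these 90 bases of CCNB1 hold no TTTGAA but CCAAT at 87 and 55. Over all 35116 promoters of 27305 genes, 15.2% held TTTGAA, 34.6% CCAAT, 5.90% both and 2.27% TTTGAA more than once. Of the 9 hyaluronan genes 8 were matched, all but HAS2. Only HMMR held CCAAT, and HMMR and HAS1 held TTTGAA. Among the spindle partners 7 of 10 were matched (not TPX2, AURKA or FAM83D). CCAAT was held by 6 of the 7, BRCA1, which rose, among them, and TTTGAA by 2, the PLK1 and KIF11 shown here. These are counts of genes with a match in any of their promoters, whereas the shares of all promoters count each promoter. HYAL3, DYNLL1 and BRCA1 had 2 promoters each, and DYNLL1 and BRCA1 did not hold CCAAT in both. The core bound by TEAD factors, GGAATG, was in the promoters of HMMR, HYAL2, HYAL3 and UGDH, 4 of the 8 matched, beside 14.0% of all promoters. HYAL3 held it in promoter 2 of 2, and it was in 0 of the 7 matched spindle partners. Of these 4 genes only HMMR was called lower. GGGCGG, also searched, was in 7 of the 8 and in all 7 matched spindle partners, beside 45.0%. TGANTCA, the AP-1 motif, was in 0 of the 8, beside 7.71%. A match is a run of letters and not a measured binding site, and the part of these motifs in the changes was not tested.

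Other hyaluronan receptors were few in these cells. LYVE1 and STAB2, the receptors of sinusoidal and lymphatic endothelium, had no row in the files, and STAB1 and TLR2 had at most 10.97 and 2.08 normalized counts in any library. Layilin (LAYN) went from 3266 ± 166 to 2214 ± 72.5, a log2 fold change of -0.56 ± 0.07 with no overlap (DESeq2, q = 8.95e-13). TLR4, which responds to hyaluronan fragments among other ligands, went from 615 ± 108 to 977 ± 157 (0.67 ± 0.10, q = 8.31e-10). The list of 7 also held PTPRC, which is a leukocyte marker and no hyaluronan receptor, at 11.5 normalized counts or fewer. With it, 1 of 3 genes given a q was called in each direction, beside 22.7% higher and 24.0% lower over all genes.

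Among the hyaluronidases, HYAL1, the lysosomal enzyme, had 698, 636, 527 and 511 normalized counts in control replicates 1 to 4 and 472, 545, 410 and 434 in OGTi replicates 1 to 4. It was lower in 4 of 4 pairs, although OGTi replicate 2 was above control replicates 3 and 4. Its log2 fold change was -0.35 ± 0.12, a 1.27-fold fall (DESeq2, q = 0.00972), and without replicate 1 it was -0.27 and not called (q = 0.114). The expected counts of HYAL1 were fractional in every library, such as 715.66 in control replicate 1 and 425.9 in OGTi replicate 3. Some of its reads were thus shared with other genes in counting, and their part in the HYAL1 value was not tested.

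HYAL2, which is tethered to the cell surface and cuts long chains into intermediate fragments, moved the other way. It had 1136, 881, 830 and 1037 normalized counts in control replicates 1 to 4 and 1285, 1069, 1006 and 1157 in OGTi replicates 1 to 4. OGTi was higher in 4 of 4 pairs while the groups overlapped. Its log2 fold change of 0.22 ± 0.09, a rise of 1.17-fold, passed the threshold narrowly (DESeq2, q = 0.0334). The call rests on pairing and on all 4 pairs, since q was 0.141 without the replicate block and 0.0719, 0.167, 0.151 and 0.0977 without replicates 1 to 4 in turn. HYAL2 shares 509 exonic bases, 11.5% of its exonic length, with TUSC2 on the same strand, and TUSC2, a mitochondrial tumour suppressor, rose too (1590 ± 171 to 1945 ± 122, log2 fold change 0.29 ± 0.09, q = 0.00178, or 0.0512 without replicate 3). The expected counts of HYAL2 were whole numbers in every library, unlike those of HYAL1 and HYAL3. The part of TUSC2 in the HYAL2 value was not tested.

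HYAL3, a hyaluronidase of low activity found in testis and other tissues, had 548, 441, 280 and 373 normalized counts in control replicates 1 to 4 and 407, 333, 355 and 296 in OGTi replicates 1 to 4. The control libraries were widely spread and the groups overlapped. On the log2 scale the change of -0.21 ± 0.15 did not pass the test (DESeq2, q = 0.258), but without replicate 3, the only pair in which OGTi was higher, it was -0.39 and passed (q = 0.0339). HYAL3 lies with HYAL1 and HYAL2 in a cluster on chromosome 3 (GRCh38, minus strand, 50292831 to 50299405, beside HYAL1 at 50299890 to 50312381 and HYAL2 at 50317790 to 50322782). It shares 232 exonic bases, 11.8% of its exonic length, with NAA80 on the same strand and 43 bases (2.19%) with IFRD2.

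The counting of HYAL3 is therefore uncertain. NAA80, the enzyme that acetylates the start of actin, rose from 535 ± 38.2 to 806 ± 59.2 normalized counts (log2 fold change 0.59 ± 0.11, DESeq2 q = 4.71e-07), higher in 4 of 4 pairs. IFRD2, a regulator of ribosomes, fell (-0.44 ± 0.08, q = 1.29e-07). HYAL3 took 50.7%, 46.9%, 35.1% and 38.8% of the counts of HYAL3 and NAA80 in control replicates 1 to 4, and 32.9%, 31.1%, 28.9% and 27.4% in OGTi replicates 1 to 4. With both genes counted as 1, an alternative added after the values were seen, the log2 fold change was 0.29 ± 0.10 (DESeq2, q = 0.0150). By group mean NAA80 was the larger gene and rose by more counts than HYAL3 fell. The sum therefore follows NAA80 and cannot check the direction of HYAL3.

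**Figure D3:**
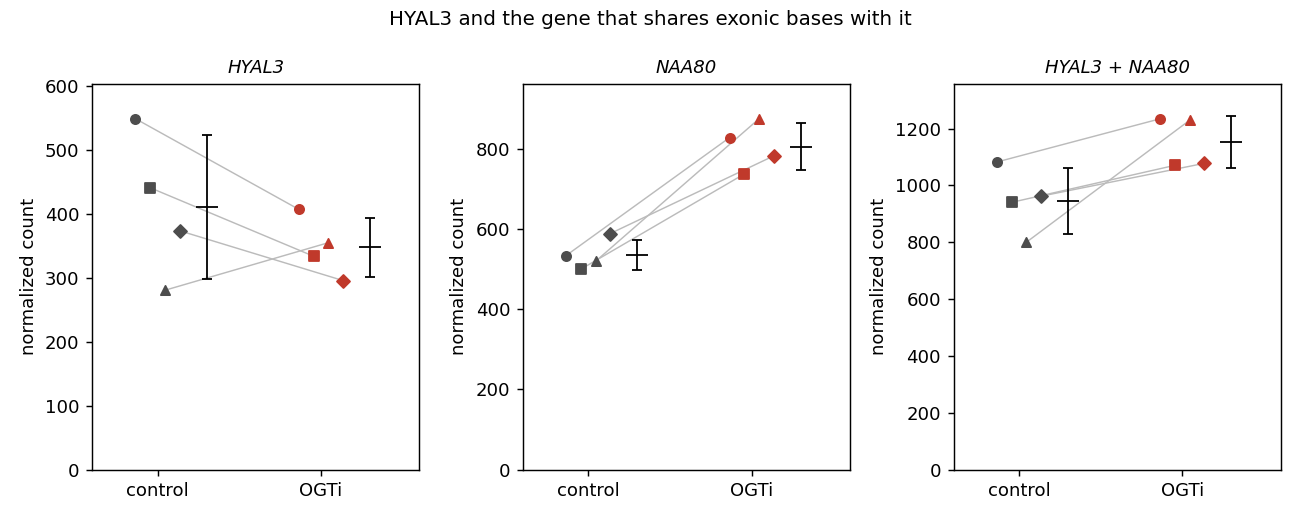
Normalized counts of HYAL3, of NAA80 and of their sum in the 4 control and 4 OGTi libraries (linear axes from 0). Points are libraries, lines join equal replicate numbers and bars are the mean ± SD of 4. HYAL3 overlaps between groups, NAA80 is higher in every OGTi library, and the sum is higher in OGTi in each pair.

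A list of 7 further breakdown genes had 6 in the files, of which 2 were called higher, 1 lower and 2 not. This stands beside 46.6% called among all genes given a q. CEMIP (KIAA1199), which binds hyaluronan and brings about its depolymerisation in fibroblasts, had 862, 705, 773 and 676 normalized counts in control replicates 1 to 4 and 193, 228, 165 and 129 in OGTi replicates 1 to 4. Control exceeded OGTi 3.09-fold to 5.23-fold in the 4 pairs, with a log2 fold change of -2.09 ± 0.15 (DESeq2, q = 2.78e-45), 39th from the largest fall. Its homologue CEMIP2 (TMEM2), a cell-surface protein that degrades hyaluronan, had 2442, 2896, 2687 and 2192 in control replicates 1 to 4 and 3564, 4468, 3576 and 3469 in OGTi replicates 1 to 4. This was a rise of 0.56 ± 0.08 with no overlap (q = 1.79e-12). The lysosomal enzymes HEXA (0.07 ± 0.08) and GUSB, the beta-glucuronidase (0.14 ± 0.07), were not called. HYAL4 had at most 2.003 normalized counts, and SPAM1 had no row.

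Among 18 genes whose products bind hyaluronan in the matrix or build its cross-links, 16 were in the files. Only 8 had enough counts for a q, with 3 called higher, 1 lower and 4 not, beside 46.6% called over all genes. The large proteoglycan versican (VCAN) went from 328 ± 103 to 164 ± 39.3 normalized counts (log2 fold change -0.97 ± 0.23, DESeq2 q = 8.56e-05), lower in 4 of 4 pairs though the groups overlapped. PTX3, a pentraxin that takes part in cross-linking hyaluronan, went from 2716 ± 288 to 5961 ± 1025 (1.12 ± 0.10, q = 3.65e-26). The link protein HAPLN3 rose by 0.80 ± 0.20 (q = 0.000272) and ITIH4, of the inter-alpha-trypsin inhibitor family, by 0.50 ± 0.22 (q = 0.0473). The ITIH4 call was lost without the replicate block (DESeq2 q = 0.0878) and without any 1 of the 4 replicates (q from 0.126 to 0.173). TNFAIP6, the enzyme that transfers heavy chains onto hyaluronan, and the link protein HAPLN1 had at most 1.002 and 0.939 normalized counts in any library.

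**Figure D4:**
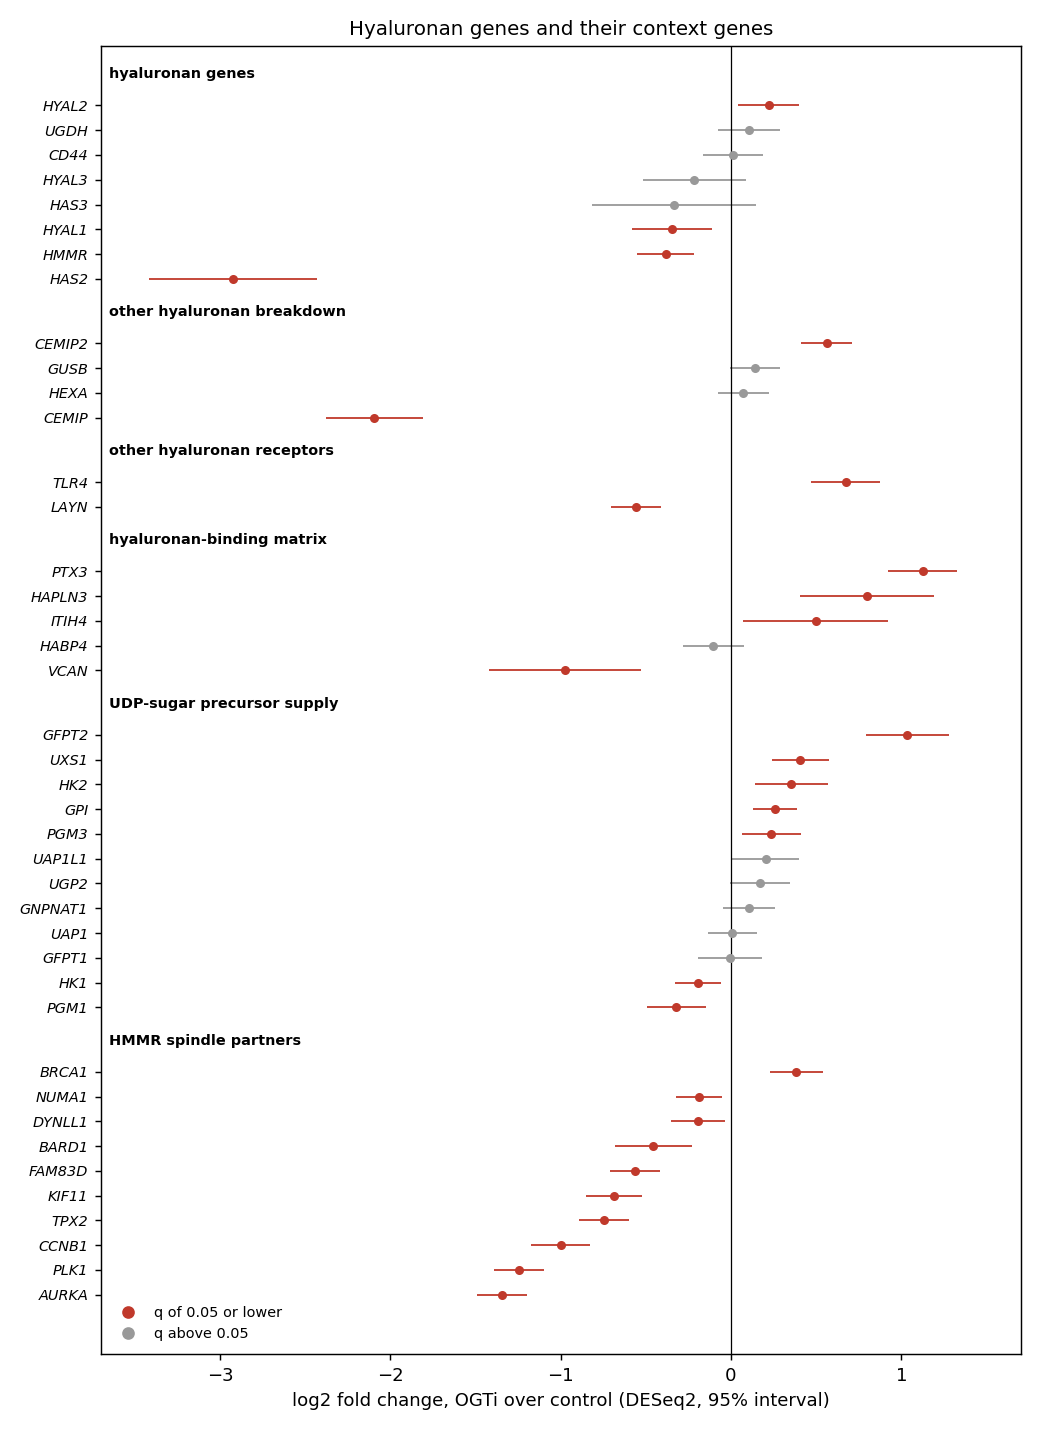
Log2 fold change of OGTi over control (horizontal axis, DESeq2, unshrunken) for the 8 hyaluronan genes and for the genes of the context lists whose group means sum to at least 200 normalized counts, without the CD44 partners and 1 further breakdown gene. Points are estimates, bars are 95% intervals, and red marks q of 0.05 or lower, grey a higher q. HAS2 (-2.93) and CEMIP (-2.09) lie far to the left of the other genes, and GFPT2 (1.04) and PTX3 (1.12) farthest to the right.

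By level per length in control cells, the order was CD44 (452 ± 23.3), HMMR (110 ± 12.4), UGDH (42.9 ± 2.56), HYAL2 (38.9 ± 5.30), HYAL3 (37.0 ± 10.1), HYAL1 (34.0 ± 5.22), HAS2 (14.7 ± 6.83) and HAS3 (3.95 ± 1.14). CD44 and HMMR were each separate from the rest in every library. HAS2 lay apart from HYAL1 above it and HAS3 below it in the control libraries. UGDH and the 3 hyaluronidases overlapped with their neighbours in this order, and with the longest transcript HYAL1 came before HYAL3. In OGTi cells the first 6 kept this order on the merged-exon scale and HAS3 (3.16 ± 0.458) came before HAS2 (2.08 ± 1.25).

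The genes most like each called gene were ranked by Pearson's r of log2 normalized counts over the 8 libraries, among 10993 genes. With 8 points that share a treatment, r follows the group difference in part and is given as a description. For HAS2 they were FANCD2 (r = 0.993), LYPD6 (0.990) and THBS2 (0.986), with 183 genes at 0.95 or higher. These 3 fell less than HAS2, with log2 fold changes of -0.49, -0.56 and -1.28 beside -2.93, as r does not compare the size of changes. For HMMR the genes most like it were APOBEC3C (0.977), SEPT8 (0.974) and DLD (0.967), and for HYAL1 they were PIF1 (0.984), CNRIP1 (0.976) and COPS9 (0.973). HYAL2 had ANKRD23 (0.968), TOMM34 (0.957) and HEMK1 (0.95).

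The stellate label was checked against 13 markers. COL1A1, COL1A2, COL3A1, PDGFRB, ACTA2, TAGLN, VIM, RELN and BNC2 were expressed, while DES, LRAT, GFAP and HAND2 had at most 5.75 normalized counts in any library. Except for VIM, the 9 expressed markers were called lower in OGTi cells, and the summed level of the 13 was 198730 to 239427 in control and 144834 to 167750 in OGTi libraries. Of 6 hepatocyte markers 2 had rows, summing to 19.5 to 74.0 and 25.96 to 74.0, with APOA1 at 1.004 or fewer. Of 5 endothelial markers 3 had rows, summing to 47.7 to 91.1 and 17.0 to 33.8, with 1 called (CDH5, lower). Of 5 leukocyte markers 4 had rows, summing to 2482 to 4089 and 5610 to 9391, nearly all CD68 (called higher), a lysosomal protein that other cells make too. Without CD68 the sums were 65.5 to 102 and 48.1 to 97.4. Of 4 cholangiocyte markers 3 had rows, summing to 681 to 1151 and 955 to 1273, with SOX9 called higher, KRT7 called lower and KRT19 at 3.01 or fewer. The part of these lists in the values of the hyaluronan genes was not tested.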

How the data were processed

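RNA sequencing of 4 control and 4 OGTi (OSMI-1) LX-2 cultures was re-analysed. The labels and the study call the 4 cultures of a group biological replicates. The authors aligned paired reads of stranded libraries to hg38 with Bowtie2 2.3.5.1 and deposited expected counts per gene from RSEM 1.3.1, unscaled for depth. In a library 12.9% to 16.3% of these deposited values were fractional, as RSEM shares ambiguous reads between genes. Their deposited comparison table (log2 fold changes, standard errors, Wald statistics as a score, and p-values) was not used. The annotation was written as GRCh38.84, and positions, exon overlaps and lengths here come from GENCODE release 44 by symbol.

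Counts were rounded, genes with fewer than 10 counts in total were left out, and 14895 genes were tested by DESeq2 1.42.0 under R 4.3.3 (Wald test, median-of-ratios size factors, replicate number as a block, unshrunken, independent filtering, Benjamini-Hochberg q of 0.05 or lower), after the study's methods. Fold changes carry the standard error of the model, 95% intervals use the normal quantile 1.96, and group values are mean ± SD of 4 libraries. The study pairs treated and control samples, and deviations from the group mean correlated between libraries of the same number (r = 0.372, 0.391, 0.165 and 0.327 over 10994 genes). Control replicate 3 was closer to OGTi replicate 4 (0.343), and OGTi replicate 3 was closer to control replicate 4 (0.255), than either was to its own number (0.165). The pairing of replicates 3 and 4 is thus less clear than that of replicates 1 and 2.

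Alternatives were edgeR 4.0.16 quasi-likelihood fits with and without the block, DESeq2 without it, TMM factors, other filters, leaving out each replicate, another gene length, and, added after the data were seen, HYAL3 and NAA80 summed. No 2 libraries of a group matched within sampling noise. Named genes were the hyaluronan genes, OGT and OGA, called genes of 6 context lists that averaged 100 normalized counts or more (at most 8 per list), genes overlapping a hyaluronan gene, and the 3 genes most like each called one. Uncalled list genes and CD68, CDH5, SOX9 and KRT7 are named to account for their lists. The members and lists were chosen with earlier results of these data known. The fitting code was tested on simulated counts with the same dispersion for every gene and no replicate effects, which is simpler than these data. Values of 2 genes that the list counts include are not reported here.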

Additional observations from a re-analysis of the deposited data

Results flagged for a closer look

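In 96 groups of 4 libraries (genes of the lists above and the shares), 5 held a library whose gap to its nearest neighbour took a larger part of the range of the group than Dixon's 95% limit for 4 values. Chance gives about 1 in 20, or 4.8 of 96. HAS3 in control replicate 3 was at 164 normalized counts, with the other control libraries from 93.6 to 104. HAS2 made up 68.1% of the HAS2 and HAS3 level per length in control replicate 1, with the others from 79.5% to 81.5%. CEMIP2 in OGTi replicate 2 was at 4468 normalized counts, with the others from 3469 to 3576. TLR4 in control replicate 1 was at 454, with the others from 649 to 688. PTX3 in OGTi replicate 1 was at 7493, with the others from 5338 to 5531.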

How the results depend on the processing

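Of 223 alternative values for 24 results, 209 kept their direction and side of the threshold, or stayed within the spread or within 1.5 times the count. The log2 fold changes of HAS2, from -3.33 to -2.71, and of HMMR passed under every alternative run. Leaving out each replicate gave 2 to 4 hyaluronan genes called (4 with all), the lowest without replicate 1, where HAS2 and HMMR remained and 4 to 6 UDP-sugar genes called (7 with all), the lowest without replicate 2. For CD44 it gave log2 fold changes from -0.12 (without replicate 1) to 0.075 (without replicate 2), and over all genes 5127 to 5690 calls (6541 with all). Summing HYAL3 and NAA80 gave 0.29, beside -0.21 for HYAL3 alone, but the sum follows NAA80 and cannot check HYAL3. Without the replicate block, 3 hyaluronan genes were called, all lower, by DESeq2 and by edgeR, HYAL2 being lost (0.22, q = 0.141 and 0.137), and 6307 and 6041 of all genes. The block changed no other call among the hyaluronan genes. Among the other genes named, PGM3, ITIH4, MSN, NUMA1 and DYNLL1 lost theirs without it. With edgeR and the block 7074 genes were called. The median of the other receptors moved from -0.56 to 0.06 and that of the matrix genes from 0.20 to 0.65 with edgeR's filterByExpr, under which fewer genes of these lists remained. Other causes were not tested. For HAS2 and HAS3, with few counts per library, counting error limits precision more than for CD44.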
